A study of Mus musculus with 2 samples.

Results

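The MHC class II genes were followed as 7 listed symbols, the chain genes H2-Aa, H2-Ab1 and H2-Eb1, the invariant chain gene Cd74, the peptide exchange genes H2-DMa and H2-DMb1, and the transactivator gene Ciita. All 7 occur among the 32285 genes of the files and were taken by symbol, with no threshold on their values. They were read in 2 single-cell RNA libraries of C57BL/6 mouse bone marrow, 1 from Trsp f/f:Mx1-Cre mice (the Trsp knockout) and 1 from Trsp f/f mice (the control). Trsp encodes the selenocysteine tRNA that all selenoproteins need, and Mx1-Cre is a Cre recombinase whose promoter answers to interferon. Mice of both genotypes had been given pI-pC, a double-stranded RNA that raises interferon, at 500 µg per mouse in 3 injections on alternate days. The series record places the injections at 7 weeks after birth, in wording that leaves the age open, and the marrow was taken 9 weeks after the last of them. Lineage- cKit+ cells of femora and tibiae, which include stem cells and early progenitors, were frozen and thawed before loading. Cre was carried by the knockout mice only, so the effect of Cre and that of the Trsp deletion cannot be told apart. The sources used here do not give the number of mice behind each library.

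With 1 library per genotype there is no replicate spread to test against. Every interval below is an exact 95% interval that covers counting error only. The knockout file held 11556 barcodes and 152092210 unique molecular identifiers (UMIs, 1 per captured molecule), and the control file 14372 barcodes and 184683653 UMIs. After filtering, 6640 knockout cells and 8046 control cells were kept, with medians of 20744 and 20352 UMIs. The libraries shared 39 cell barcodes, 10 of them among kept cells. The genotype label was checked on selenoprotein mRNAs, since these are known to be unstable without the selenocysteine tRNA. Levels are given as CPM, the UMIs of a gene per 1000000 UMIs of the cell class. A gene counts as measured from a floor of 20 CPM in either library together with 50 UMIs in all. Of 6 such mRNAs, 5 were measured in stem-gated cells and all 5 were lower there by 1.5-fold or more, as were 0.742% of all measured genes. Gpx1, a glutathione peroxidase gene, was at 142 CPM in the knockout and 880 CPM in the control.

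By the GENCODE annotation of GRCm38 (mm10), 5 of the 7 genes lie in the MHC region of chromosome 17, in the order H2-DMa, H2-DMb1, H2-Ab1, H2-Aa and H2-Eb1. H2-DMa spans bases 34119541 to 34139101 and H2-Eb1, at the other end, spans 34305867 to 34316674. H2-Aa (34282744 to 34287823) is on the minus strand and the other 4 are on the plus strand. Ciita is on chromosome 16 (10480059 to 10528418, plus strand). Cd74 is outside the MHC, on chromosome 18 (60803848 to 60812652, plus strand). Class II molecules present peptides from endocytosed protein to CD4 T cells. The α and β chains of I-A are encoded by H2-Aa and H2-Ab1, and H2-Eb1 encodes the β chain of I-E. C57BL/6 mice carry a defective gene for the I-E α chain, so their H2-Eb1 is transcribed without I-E being displayed.

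Cd74 encodes the invariant chain, which blocks the peptide groove until the chains reach the endosome. H2-DMa and H2-DMb1 encode the chaperone that then exchanges its remnant for peptide. Ciita encodes the coactivator that assembles on a shared promoter module, made of an X box bound by RFX, an X2 box bound by CREB family proteins, and a Y box bound by NF-Y. Dendritic cells and B cells are the classical class II cells, and mouse hematopoietic stem cells are known to carry some class II as well.

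The promoters are shown as background on the shared module, for both chain genes and peptide exchange genes. Whether promoter sequence bears on any difference described below was not tested. RefSeq promoter sequences (GRCm38.p6, 250 bases before to 50 after the start) were taken for 4 members. H2-Ab1, Ciita and Cd74 are named only, and Cd74 was left out by choice. Capitals mark TGATTGG, the core of the Y box, and either of the 8-base stretches TGATGATG and TGACGTCA at the X2 position, searched on both strands. No match overlapped another. Each is written 5′ to 3′ on the gene's strand, for H2-Aa at chr17:34287774-34288073 (minus), H2-Eb1 at chr17:34305617-34305916 (plus), H2-DMb1 at chr17:34152941-34153240 (plus) and the first of 2 starts of H2-DMa at chr17:34122582-34122881 (plus).
H2-Aa: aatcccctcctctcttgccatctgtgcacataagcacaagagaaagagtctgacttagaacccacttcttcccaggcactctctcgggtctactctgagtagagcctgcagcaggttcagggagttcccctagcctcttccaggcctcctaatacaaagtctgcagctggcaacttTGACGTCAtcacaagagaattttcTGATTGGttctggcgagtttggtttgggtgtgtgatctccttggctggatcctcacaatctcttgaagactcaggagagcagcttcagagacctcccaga
H2-Eb1: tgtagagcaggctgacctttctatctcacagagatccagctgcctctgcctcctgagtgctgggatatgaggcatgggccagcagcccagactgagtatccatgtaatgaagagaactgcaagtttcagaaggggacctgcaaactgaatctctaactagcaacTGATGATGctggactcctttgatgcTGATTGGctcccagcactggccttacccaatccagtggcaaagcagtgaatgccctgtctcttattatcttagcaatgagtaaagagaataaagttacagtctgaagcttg
H2-DMb1: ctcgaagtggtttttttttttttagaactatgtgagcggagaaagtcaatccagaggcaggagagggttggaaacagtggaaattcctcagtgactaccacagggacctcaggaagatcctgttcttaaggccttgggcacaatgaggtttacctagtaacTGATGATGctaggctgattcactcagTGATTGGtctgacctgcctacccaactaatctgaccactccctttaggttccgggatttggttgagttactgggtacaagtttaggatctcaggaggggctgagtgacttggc
H2-DMa: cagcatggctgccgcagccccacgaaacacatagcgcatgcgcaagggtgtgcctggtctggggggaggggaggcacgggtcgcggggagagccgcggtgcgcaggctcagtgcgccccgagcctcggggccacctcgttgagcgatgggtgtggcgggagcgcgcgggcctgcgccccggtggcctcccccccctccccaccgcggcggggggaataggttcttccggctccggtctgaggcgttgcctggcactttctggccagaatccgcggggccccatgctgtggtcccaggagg
The H2-Aa, H2-Eb1 and H2-DMb1 windows each held 1 Y box core and 1 X2 stretch, in the same order and 16, 17 and 18 bases apart. Of 32851 promoters of the same length, 7.82% held the Y box core, 1.44% held TGATGATG, 1.79% held TGACGTCA, and 79 (0.240%) held the core with either stretch. H2-Eb1 and H2-DMb1 also shared the run AACTGATGATGCT of 13 bases across the X2 position. None of the 3 motifs matched in either H2-DMa window. The window shown had a GC content of 73.0%, against a median of 52.7% over all promoters. Both H2-DMa windows lie inside the annotated span of the gene (34119541 to 34139101), at 34122582 to 34122881 and 34125268 to 34125567. Bases further along the gene were not searched, so a motif at another start of H2-DMa would not have been seen. The matches above are of letters only and say nothing of binding.

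Cells were sorted into classes by gates on raw UMIs of marker genes, with no class II gene in any gate. A stem-gated cell had at least 1 UMI of Hlf and 1 of Mecom, both transcription factors of hematopoietic stem cells, and a dendritic-gated cell had at least 4 of 10 conventional dendritic markers. Cells that met several gates or none were kept apart. The stem gate took 518 knockout and 589 control cells, with medians of 15842 and 13958 UMIs, and the dendritic gate took 115 and 148, with medians of 14477 and 11970. As a check, 8 stem markers that the gate did not use summed to 470 CPM in knockout and 447 CPM in control stem-gated cells, against 54.1 and 46.0 CPM in neutrophil progenitors. The 10 dendritic markers summed to 1622 CPM in knockout and 1585 CPM in control dendritic-gated cells, none at 0. The gate itself used these 10 markers, so their sum is no check of it. In all, 9 classes had at least 30 cells in each library.

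Among these 9 classes, class II RNA was highest in dendritic-gated cells, and stem-gated cells came next for the chain and invariant chain genes. Classes with fewer cells are left out of the orders below, and some lay higher, such as plasma cells, with Cd74 at 2562 CPM in the knockout and 2623 CPM in the control. H2-Aa stood at 3687 CPM in knockout and 3341 CPM in control dendritic-gated cells, and at 31.1 and 15.2 CPM in stem-gated cells. Lymphoid-primed progenitors followed with 11.9 CPM in the knockout and 12.9 CPM in the control. In the other 6 classes H2-Aa lay between 0.724 and 8.20 CPM in the knockout and between 0.420 and 1.42 CPM in the control, and neighbours there overlapped in their counting intervals. In the knockout the intervals of stem-gated and lymphoid-primed cells were apart, and in the control they overlapped.

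**Figure D1:**
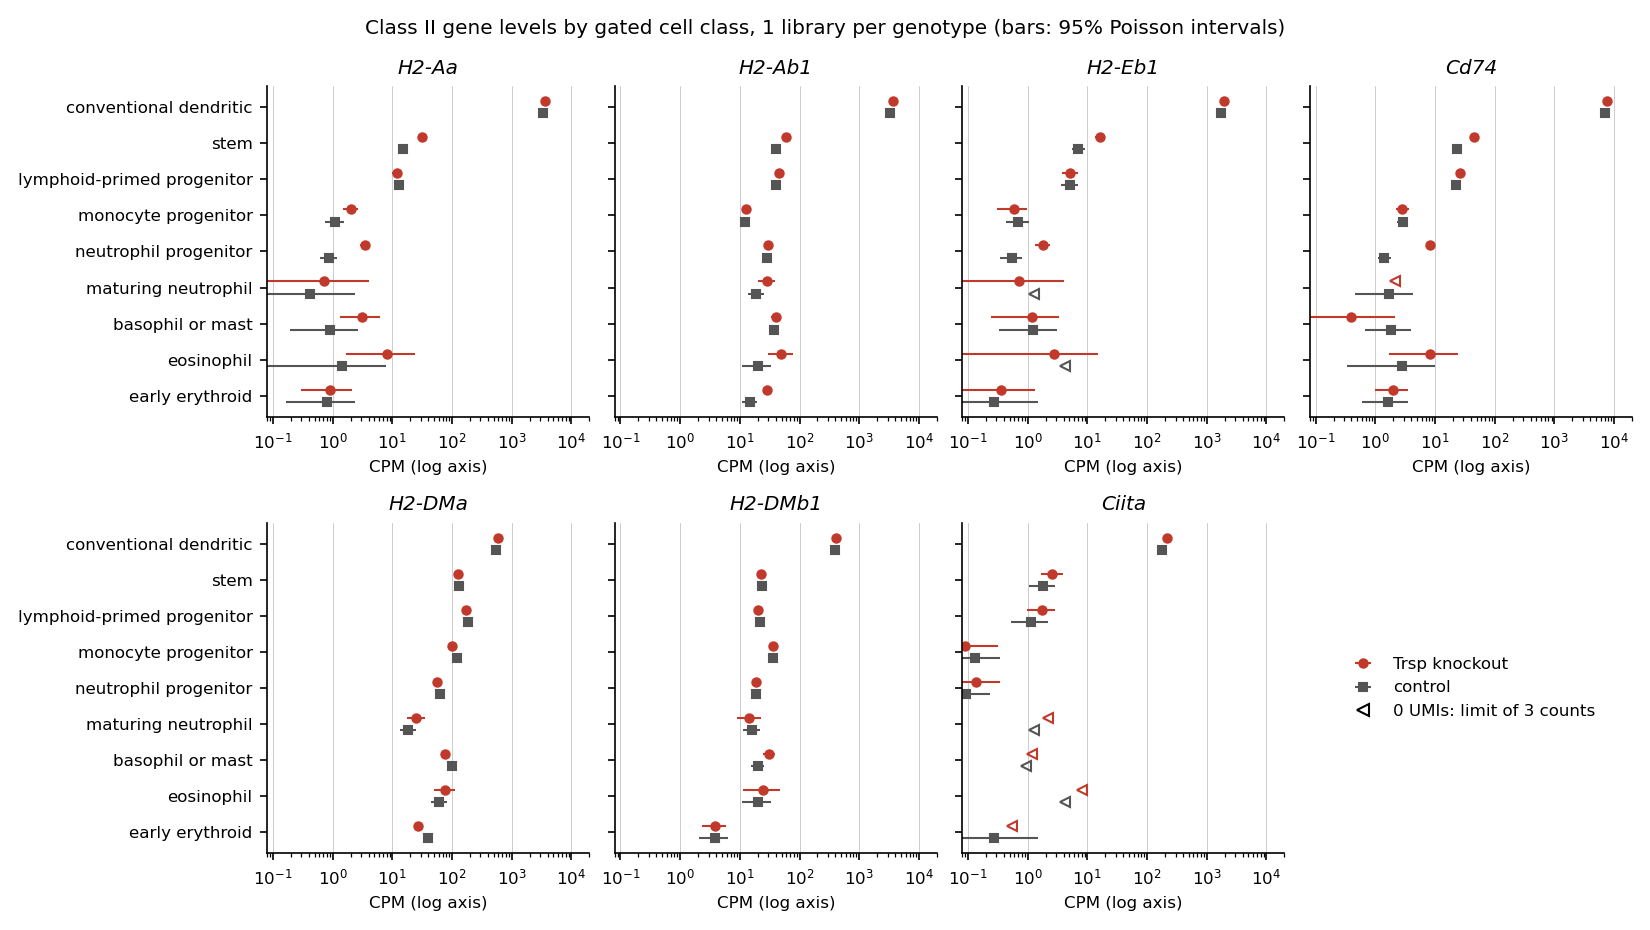
Levels of the 7 class II genes in 9 gated cell classes, in CPM on a log axis, with knockout points (circles) above control points (squares). Bars are 95% Poisson intervals of the summed UMIs, some of which run past the left edge, and open triangles mark classes with 0 UMIs at the limit of 3 counts. Dendritic-gated cells lie highest for every gene, with H2-Aa at 3687 CPM in the knockout and 3341 CPM in the control, while H2-DMa spans the classes far more evenly.

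For H2-Eb1, Cd74 and Ciita, too, stem-gated cells came second of the 9 classes in both libraries, followed by lymphoid-primed progenitors. The intervals of these 2 classes were apart for H2-Eb1 and Cd74 in the knockout, and overlapped in the control and, for Ciita, in both. Cd74 was at 7766 CPM in knockout and 7023 CPM in control dendritic-gated cells, 44.7 and 23.6 CPM in stem-gated cells, and 26.8 and 22.7 CPM in lymphoid-primed progenitors. H2-Ab1 was less restricted. Its stem level of 60.2 and 40.4 CPM overlapped that of the next class, and its lowest level, in monocyte progenitors, was still 12.6 CPM in the knockout and 12.4 CPM in the control. For 1 UMI of H2-Aa there were 0.997 UMIs of H2-Ab1 in dendritic-gated cells of either genotype, 1.94 and 2.66 in knockout and control stem-gated cells, and 8.63 and 33.0 in neutrophil progenitors. Such UMI ratios are set side by side between cell classes and not between genes, since 3′ capture differs from gene to gene.

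H2-DMa had a different order over the 9 classes. Dendritic-gated cells came first at 589 CPM in the knockout and 548 CPM in the control, then lymphoid-primed progenitors at 174 and 189 CPM, then stem-gated cells at 127 and 133 CPM. Even the lowest of the 9, maturing neutrophils, had 25.4 CPM in the knockout and 18.5 CPM in the control. H2-DMb1 stood at 36.1 CPM in knockout and 36.4 CPM in control monocyte progenitors, above its 22.98 CPM in knockout and 23.10 CPM in control stem-gated cells. Over the 18 points of 9 classes and 2 libraries, the Pearson correlation of log2(CPM + 1) with H2-Aa was 0.993 for H2-Eb1, 0.985 for Cd74, 0.975 for Ciita and 0.961 for H2-Ab1, and 0.867 for H2-DMb1 and 0.855 for H2-DMa. These points share libraries and depth, so the values are descriptive.

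In stem-gated cells that met no other gate, H2-Aa and Cd74 were at least 1.5-fold higher in the knockout library, H2-Ab1 was just short of that, H2-Eb1 was under the floor, and the intervals of the peptide exchange genes held equality. With cells that met another gate let in, the log2 ratios of all 4 chain and invariant chain genes were below 0 (H2-Aa -0.21, H2-Ab1 -0.046, H2-Eb1 -0.22, Cd74 -0.43), as described further on. H2-Aa had 288 UMIs, or 31.1 CPM (27.6 to 34.9), in the knockout, against 144 UMIs, or 15.2 CPM (12.8 to 17.9), in the control. The ratio was 2.05-fold, a log2 ratio of 1.03 (0.74 to 1.33). Cd74 had 414 UMIs (44.7 CPM, 40.5 to 49.2) in the knockout and 224 UMIs (23.6 CPM, 20.6 to 26.9) in the control, a log2 ratio of 0.92 (0.68 to 1.16). For both genes the level intervals of the libraries did not overlap.

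H2-Ab1, the partner chain of H2-Aa, had 558 UMIs (60.2 CPM) in the knockout and 383 UMIs (40.4 CPM) in the control. Its 1.49-fold ratio, a log2 ratio of 0.58 (0.39 to 0.77), was just short of 1.5-fold. H2-Eb1 had 149 UMIs (16.1 CPM) in the knockout and 67 UMIs (7.07 CPM) in the control, a 2.27-fold ratio with a log2 interval of 0.76 to 1.62. It stayed under the floor of 20 CPM and so was not among the measured genes.

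H2-DMa gave 1178 UMIs (127 CPM) in the knockout and 1261 UMIs (133 CPM) in the control, a log2 ratio of -0.07 (-0.18 to 0.05). H2-DMb1 gave 213 UMIs in the knockout and 219 in the control, a log2 ratio of -0.01 (-0.29 to 0.27). Both intervals leave out a 1.5-fold difference, which is 0.58 on this scale. H2-DMb1 has a close paralog next to it, H2-DMb2, and reads that match both genes may be assigned uncertainly. Ciita was rarely caught, with 24 UMIs in the knockout and 17 in the control, and its interval (-0.43 to 1.52) spans both equality and a doubling.

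Of the 5 members measured in stem-gated cells, 2 (H2-Aa and Cd74) were at least 1.5-fold higher in the knockout, and none was that far lower. Beside them stood 49 of all 6469 measured genes (0.757%). H2-Aa passed the floor of 20 CPM only through the knockout library, where it was higher (31.1 against 15.2 CPM). The members were chosen with earlier results of these data known, so their count, median and places are descriptive only. The median log2 ratio was 0.58 over the 5 members and 0.01 over all measured genes. Ordered by that ratio from the highest, H2-Aa took place 12, Cd74 place 16, H2-Ab1 place 53, H2-DMb1 place 3523 and H2-DMa place 4373. The 7 members together reached 305 CPM in the knockout and 244 CPM in the control, a log2 ratio of 0.32 (0.24 to 0.40). H2-Aa, H2-Ab1, H2-Eb1 and Cd74 alone, referred to as the 4-gene sum, reached 152 CPM in the knockout and 86.3 CPM in the control, a log2 ratio of 0.82 (0.69 to 0.94).

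**Figure D2:**
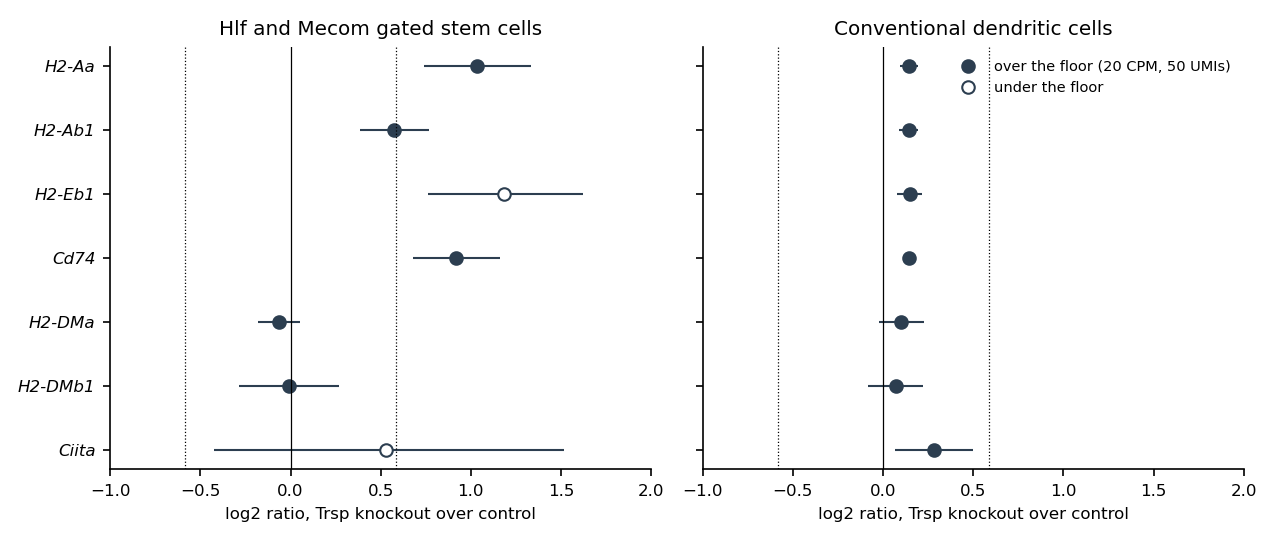
Log2 ratio, Trsp knockout over control, of each class II gene in stem-gated cells (left panel) and dendritic-gated cells (right panel), with exact 95% intervals for counting error. Dotted lines mark 1.5-fold in either direction, and open points are genes under the floor of 20 CPM and 50 UMIs. In stem-gated cells H2-Aa (1.03), H2-Eb1 (1.19) and Cd74 (0.92) lie past the line and H2-DMa (-0.07) lies near 0, while in dendritic-gated cells every point lies between 0.07 and 0.28.

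The stem result depended on which cells were let into the class. Cells that also met another gate were left out of it, and 6 such control cells, which met the stem and dendritic gates at once, held 1146 class II UMIs (1065 of H2-Aa, H2-Ab1, H2-Eb1 and Cd74). The knockout had 1 such cell, with 12. For comparison, all 589 control stem-gated cells together held 2315. With every multi-gate cell let in, the log2 ratio of the summed 7 members was -0.15. A setting added with these values in view let in the multi-gate cells except those that also met a dendritic, mature B or plasma gate, and gave 0.29 for the sum and 1.02 for H2-Aa. The 6 cells had a median of 23486 UMIs, against 13958 in control stem-gated cells, and the part of doublets among them was not tested. With the cells that a doublet caller had removed put back, H2-Aa was at 0.83 and Cd74 at 0.50, so that 1 member stayed past 1.5-fold. Mitochondrial RNA also differed, at a median of 4.59% of UMIs in knockout and 3.81% in control stem-gated cells. Under a limit of 5%, with at least 1000 genes, 340 knockout and 521 control cells remained and the sum was at 0.25.

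Markers of other class II cells were mostly low in the stem-gated cells. Cells that also met the dendritic, mature B or macrophage gate had been left out, so these low levels follow in part from the gates. The 10 dendritic markers summed to 72.9 CPM in the knockout and 70.4 CPM in the control, of which Wdfy4 alone gave 62.2 and 58.1 CPM. Cd209a and Ifi205 were at 0 in both libraries, Batf3 was at 0 in the knockout, and Xcr1 had 2 UMIs in each. The 6 mature B markers summed to 23.8 CPM in the knockout and 25.8 CPM in the control, of which Cd79b gave 23.3 and 25.5 CPM, with Fcmr and Cd22 at 0 in both and Ms4a1 at 0 in the knockout. The 7 macrophage markers summed to 0.971 CPM in the knockout and 2.00 CPM in the control, with C1qb and Mrc1 at 0 in both and C1qa at 0 in the control. In the 106 knockout and 164 control stem-gated cells with 0 UMIs of all of these markers, the log2 ratio was 1.16 for H2-Aa, 0.77 for Cd74, 0.51 for H2-Eb1 and 0.24 for H2-Ab1.

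Within the stem gate, class II RNA went with the level of Hlf. Cells were split at 207 and 543 Hlf CPM, which left 152, 166 and 200 knockout cells and 217, 203 and 169 control cells in the lowest, middle and highest tertile. H2-Aa was at 9.56, 29.2 and 61.1 CPM along the tertiles in the knockout and at 6.07, 12.2 and 42.7 CPM in the control. H2-DMa was at 121, 131 and 131 CPM in the knockout and at 128, 140 and 134 CPM in the control, so it did not follow Hlf in either library. The knockout held more cells in the highest tertile, and values within a tertile are therefore set beside the pooled one. Depth was not matched between tertiles, and cells of the highest tertile had fewer UMIs each in both libraries.

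The sum of H2-Aa, H2-Ab1, H2-Eb1 and Cd74 was 71.4 CPM in the knockout and 59.8 CPM in the control in the lowest tertile, 142 and 73.0 CPM in the middle tertile, and 268 and 174 CPM in the highest. The log2 ratios were 0.25 (0.00 to 0.51), 0.96 (0.72 to 1.19) and 0.63 (0.43 to 0.82), against 0.82 over the whole gate. In the middle tertile Cd74 had 117 UMIs in the knockout and 47 in the control (39.3 and 14.7 CPM), a log2 ratio of 1.42. H2-Eb1 was at 1.58 there (36 UMIs in the knockout and 13 in the control), H2-Aa at 1.26 and H2-Ab1 at 0.54. In the lowest tertile the Cd74 interval (-0.49 to 0.71) held equality.

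**Figure D3:**
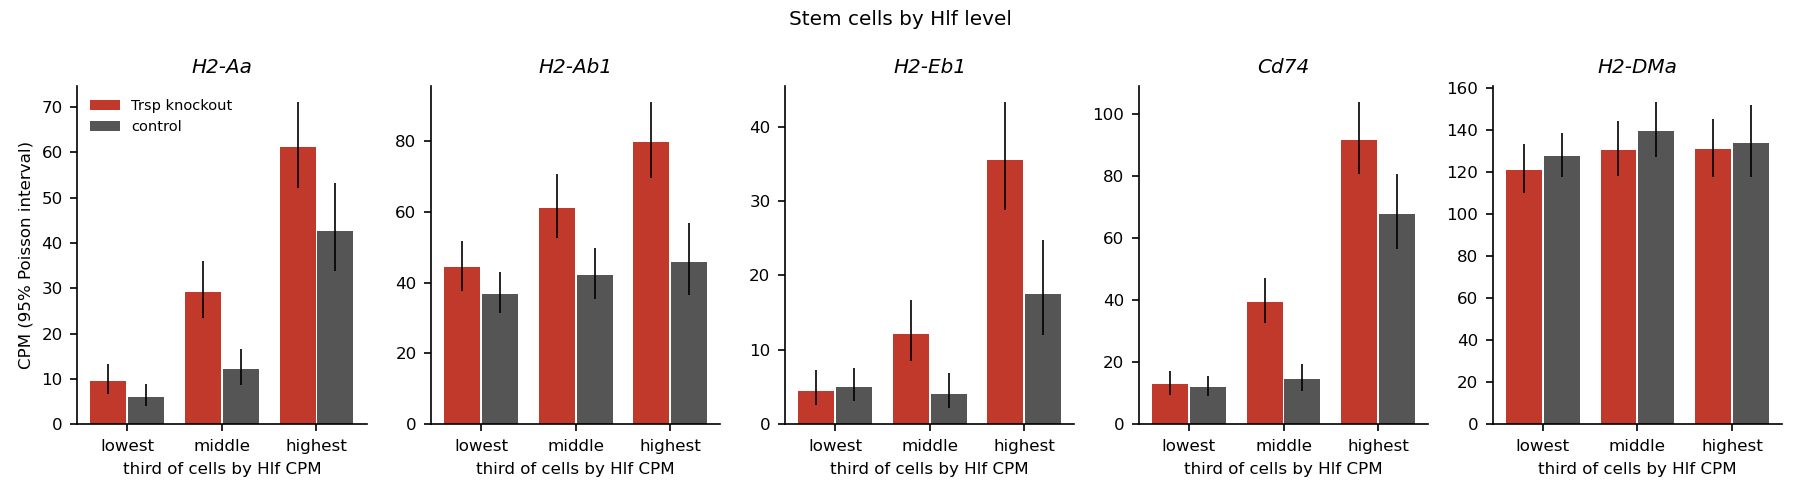
Levels of 5 class II genes in stem-gated cells split into tertiles of Hlf CPM, with knockout bars left of control bars, in CPM from 0, and 95% Poisson intervals. H2-Aa, H2-Ab1, H2-Eb1 and Cd74 are highest in the highest tertile of both libraries (H2-Aa at 61.1 CPM in the knockout and 42.7 CPM in the control), and H2-DMa lies between 121 and 140 CPM throughout.

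Clusters made without class II and selenoprotein genes gave a further split of the same stem-gated cells. Cluster 7, led by stem cell genes (Nkx2-3, Procr, Mmrn1, Hlf, Mecom) and by Iigp1, an interferon-inducible GTPase gene, held 237 knockout and 285 control stem-gated cells. There the 4-gene sum was 288 CPM in the knockout and 134 CPM in the control, a log2 ratio of 1.10 (0.93 to 1.27). Cluster 1, whose leading genes are H1fx, 1500009L16Rik and Myct1, held 135 knockout cells at 99.9 CPM and 141 control cells at 54.2 CPM, a log2 ratio of 0.88 (0.62 to 1.15). Cluster 8, led by Selp and Ctla2a, held 99 knockout cells at 73.6 CPM and 113 control cells at 69.7 CPM, and its interval (-0.28 to 0.44) held equality. Gene by gene, cluster 8 had 26 UMIs of H2-Aa in the knockout and 10 in the control, 92 and 93 of H2-Ab1, 5 and 8 of H2-Eb1, and 15 and 18 of Cd74. The remaining clusters together held 47 knockout and 50 control stem-gated cells and went the other way, with a 4-gene ratio of -0.22 (-0.68 to 0.25), H2-Aa at -0.74 (-2.30 to 0.70) and Cd74 at -1.47 (-2.60 to -0.46). H2-DMa gave log2 ratios of -0.01, -0.09 and 0.00 in clusters 7, 1 and 8.

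Cells with only 1 of the gate's genes had lower levels. Those with Hlf but no Mecom UMI, and no other gate met, numbered 798 in the knockout and 913 in the control. Their 4-gene sum was 60.1 CPM in the knockout and 52.9 CPM in the control, a log2 ratio of 0.18 (0.06 to 0.31). The 77 knockout cells with Mecom but no Hlf UMI had 57.8 CPM and the 111 such control cells 43.4 CPM. The 1155 knockout and 1480 control cells with neither, and no gate met, had 93.5 and 107 CPM, with a log2 ratio of -0.19 (-0.27 to -0.12). There the direction was the other way, and the control level was above the 86.3 CPM of control stem-gated cells.

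Shares of cells with a UMI were compared after each cell was thinned to 5000 UMIs, which left out 2 knockout and 7 control stem-gated cells. H2-Aa was then found in 14.5% (11.6 to 17.9) of knockout and 7.90% (5.84 to 10.4) of control stem-gated cells. Without thinning the shares were 26.8% in the knockout and 12.9% in the control. In early erythroid cells, which should lack class II, the thinned shares were 0.758% (1 of 132 cells) and 0.870% (1 of 115 cells), at the same depth. Cd74 was found in 13.8% of knockout and 8.76% of control stem-gated cells, against 0 of 132 and 0 of 115 early erythroid cells, which allows shares of up to 2.76% and 3.16% by the exact intervals. The stem shares lay above the early erythroid shares in both libraries. Before thinning, early erythroid cells had medians of 41427 UMIs in the knockout and 28798 in the control, against 15842 and 13958 in stem-gated cells. Thinning does not even out the part of a cell's UMIs that comes from RNA outside the cell. That part was not tested.

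H2-Ab1 was found in 24.8% of knockout and 18.2% of control stem-gated cells, but also in 14.4% and 5.22% of early erythroid cells. H2-Eb1 was found in 7.75% of knockout and 4.30% of control stem-gated cells. H2-DMa was found in 48.6% of knockout and 45.2% of control cells, with overlapping intervals. At least 1 UMI of any of the 7 members was found in 70.0% (65.8 to 73.9) of knockout and 65.1% (61.1 to 69.0) of control stem-gated cells, and in 32.6% and 30.4% of early erythroid cells. In the stem-gated cells with 0 UMIs of every dendritic, mature B and macrophage marker it was 67.3% in the knockout and 69.1% in the control. The direction of that share did not hold in that set, which had 106 and 164 cells before thinning. A set chosen after the data were seen required 0 UMIs of only 7 dendritic and 5 mature B markers. It had 501 knockout and 574 control cells before thinning, and there the share was 69.3% in the knockout and 65.6% in the control.

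**Figure D4:**
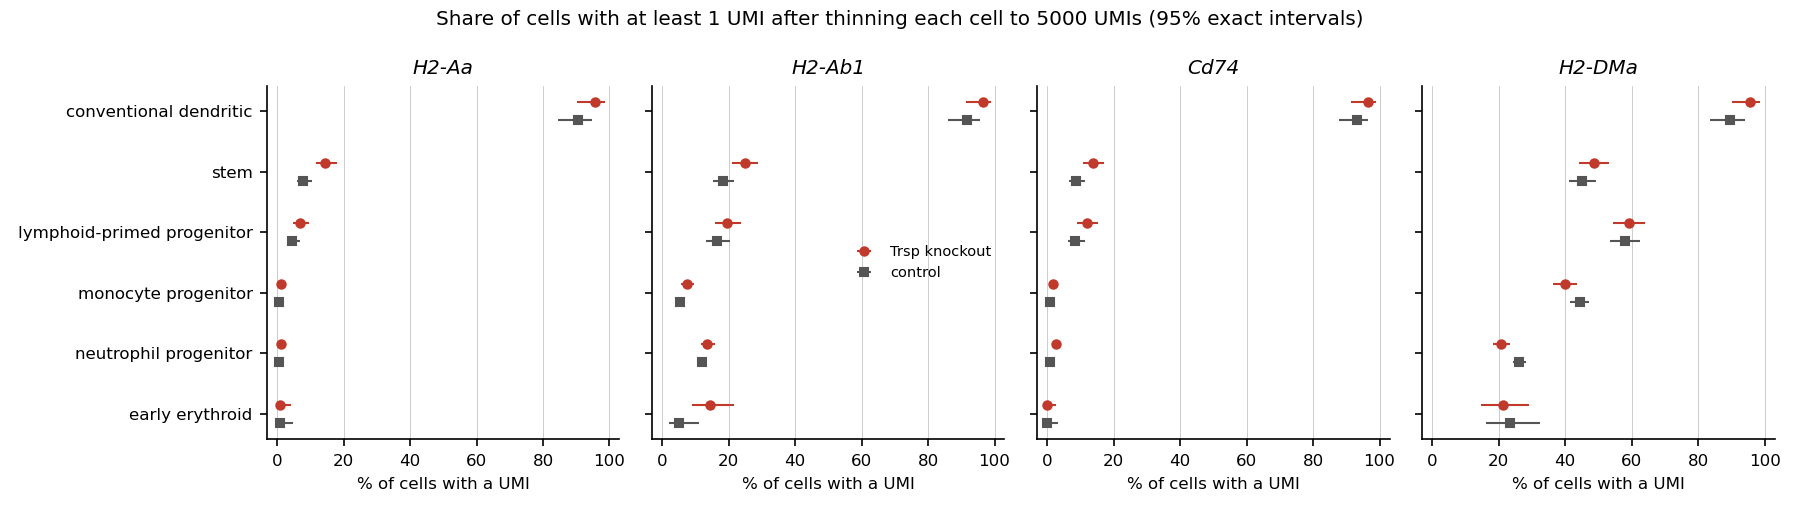
Share of cells with at least 1 UMI of 4 class II genes after thinning each cell to 5000 UMIs, in 6 cell classes, with knockout points (circles) above control points (squares) and exact binomial 95% intervals. For H2-Aa and Cd74 the stem and lymphoid-primed shares lie between those of dendritic-gated cells (for H2-Aa, 95.7% in the knockout and 90.4% in the control) and those of the monocyte, neutrophil and erythroid classes near 0.

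Within the stem gate the UMIs were unevenly spread over cells. H2-Aa had 0 UMIs in 379 of 518 knockout and 513 of 589 control cells, and at most 12 UMIs in a knockout cell and 8 in a control cell. The 4-gene sum was at least 5 UMIs in 87 knockout cells (16.8%) and 38 control cells (6.45%). The 5% of cells with the most (26 knockout and 30 control cells) held 35.1% of these UMIs in the knockout and 40.7% in the control. Taken gene by gene, such a top 5% held 45.8% of H2-Aa UMIs in the knockout and 68.1% in the control, 57.5% and 69.2% of Cd74, and 55.0% and 77.6% of H2-Eb1. H2-Ab1 was the most even, at 25.1% in the knockout and 29.0% in the control. Members tended to be found in the same thinned cells. Of 75 knockout stem-gated cells with H2-Aa, 33 (44.0%) also had Cd74, against 38 of 441 (8.62%) without H2-Aa. In the control Cd74 was found in 21 of 46 cells with H2-Aa (45.7%) and in 30 of 536 without it (5.60%). H2-DMa detection differed less, at 54.7% with and 47.6% without H2-Aa in the knockout and in 23 of 46 and 240 of 536 cells in the control.

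In dendritic-gated cells all 7 members were higher in the knockout library by at most 1.22-fold. H2-Aa was at 3687 CPM in the knockout and 3341 CPM in the control, a log2 ratio of 0.14 (0.09 to 0.19). H2-Ab1 (3674 CPM in the knockout and 3331 CPM in the control) had a ratio of 0.14, and H2-Eb1 (1944 CPM in the knockout and 1755 CPM in the control) of 0.15. Cd74 was at 7766 CPM in the knockout and 7023 CPM in the control, with a ratio of 0.15 (0.11 to 0.18). The 4 ratios were nearly alike, and UMIs per H2-Aa UMI were 2.11 and 2.10 for Cd74 and 0.527 and 0.525 for H2-Eb1 in knockout and control.

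H2-DMa was at 589 CPM in the knockout and 548 CPM in the control, and H2-DMb1 at 410 and 391 CPM, and both intervals held equality. Ciita, at 371 UMIs (216 CPM) in the knockout and 343 UMIs (178 CPM) in the control, had the largest ratio of the 7, 0.28 (0.07 to 0.50). Of the 7 measured members, 0 were at least 1.5-fold higher and 0 that far lower, beside 7.00% and 3.62% of the 6053 genes measured in these cells. The members' median log2 ratio was 0.14 and that of all measured genes 0.02.

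The pooled dendritic value differed from the values within subsets, which were defined once the pooled values had been seen. The type 1 markers Xcr1 and Clec9a mark the cross-presenting dendritic subset. Cells with at least 2 UMIs of these together and none of Cd209a numbered 45 in the knockout and 38 in the control. Cells with the type 2 marker Cd209a and no Xcr1 or Clec9a UMI numbered 14 in the knockout and 9 in the control. The remaining 56 knockout and 101 control cells are labelled neither or both, and include cells with a single type 1 marker UMI. In type 1 cells the 4-gene sum was 24591 CPM in the knockout and 26261 CPM in the control, a log2 ratio of -0.09 (-0.13 to -0.06). In the cells labelled neither or both it was 12089 CPM in the knockout and 11376 CPM in the control, a ratio of 0.09 (0.05 to 0.12). In type 2 cells it was 11565 CPM in the knockout and 11654 CPM in the control, a ratio of -0.01 (-0.11 to 0.09). Type 1 cells had the most class II RNA per UMI and made up more of the knockout dendritic-gated cells, and no subset's 4-gene ratio reached the pooled 0.14. The split is on raw UMIs, and depth differed, at medians of 14477 UMIs in knockout and 11970 in control dendritic-gated cells. Single genes did so in the cells labelled neither or both, with H2-Aa at 0.18 (0.11 to 0.26) and Ciita at 0.43 (0.10 to 0.75).

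**Figure D5:**
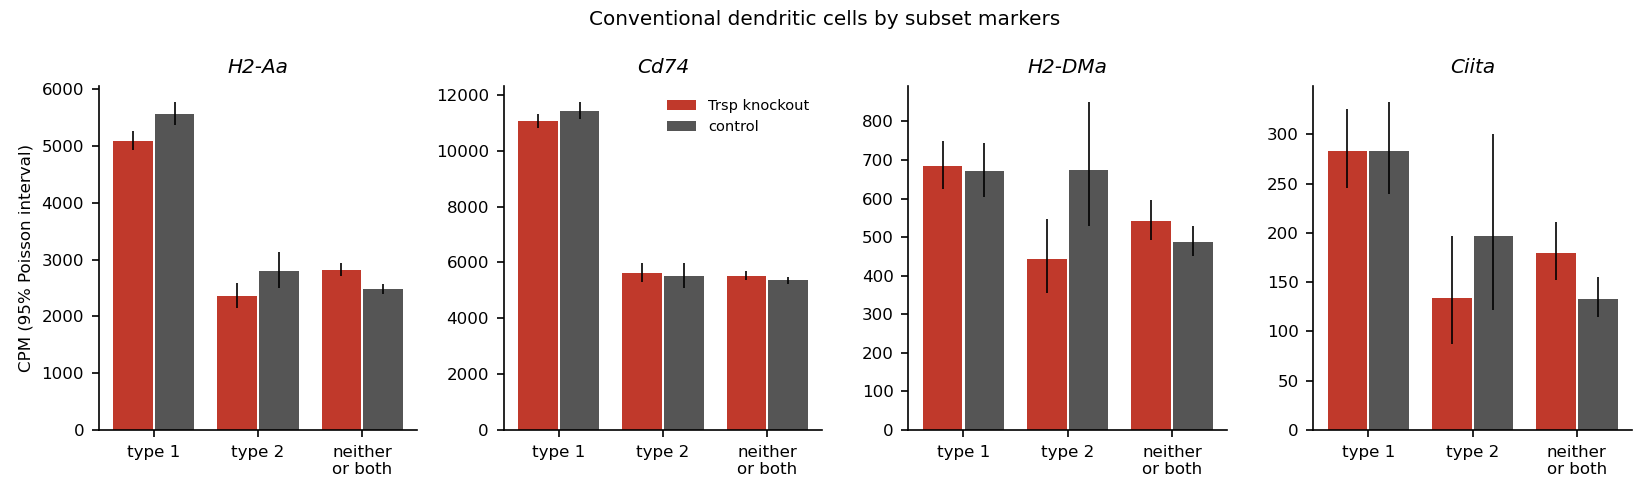
Levels of H2-Aa, Cd74, H2-DMa and Ciita in dendritic-gated cells split by subset markers, with knockout bars left of control bars, in CPM from 0, and 95% Poisson intervals. Type 1 cells are highest for H2-Aa (5092 CPM in the knockout and 5562 CPM in the control) and Cd74 (11047 and 11438 CPM).

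In lymphoid-primed progenitors, gated on Dntt and Flt3, H2-Aa had 102 UMIs in each library (11.9 CPM in the knockout and 12.9 CPM in the control), a log2 ratio of -0.12 (-0.53 to 0.30). The 4-gene sum was 88.7 CPM in the knockout and 80.8 CPM in the control, a ratio of 0.13 (-0.02 to 0.29), and H2-DMa was at -0.12 (-0.22 to -0.01). In monocyte progenitors the 4-gene sum was 18.1 and 17.1 CPM, while H2-DMa was lower at 102 CPM in the knockout against 120 CPM in the control, a ratio of -0.24 (-0.32 to -0.17). Over all kept cells H2-DMa was at 103.5 CPM in the knockout and 111 CPM in the control, a ratio of -0.10 (-0.13 to -0.07), where the median of all measured genes was 0.08.

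In neutrophil progenitors H2-Aa was at 3.49 CPM in the knockout and 0.863 CPM in the control, and Cd74 at 8.26 and 1.43 CPM. Depth differed there, with 917 knockout and 115 control cells under 5000 UMIs. In the 1067 knockout and 1955 control cells at or over 5000 UMIs, H2-Aa was at 1.61 and 0.775 CPM and Cd74 at 3.36 and 1.32 CPM, ratios of 1.05 (0.38 to 1.74) and 1.35 (0.86 to 1.84) at 45 and 34 UMIs and at 94 and 58 UMIs. H2-Ab1 was at 28.7 CPM in the knockout and 28.5 CPM in the control in the same cells. The part of the low-UMI barcodes in the pooled value was not tested beyond this. Barcodes with under 500 genes, which were left out, held H2-Aa at 7.23 CPM in the knockout and 6.76 CPM in the control and Cd74 at 14.9 CPM in both.

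Early erythroid cells had H2-Ab1 at 158 UMIs (28.5 CPM) in the knockout and 54 UMIs (14.6 CPM) in the control, a log2 ratio of 0.97 (0.51 to 1.44). Its partner H2-Aa had 5 and 3 UMIs there, and H2-DMa was lower at 27.3 CPM in the knockout against 38.9 CPM in the control, a ratio of -0.51 (-0.85 to -0.17). In basophils or mast cells H2-DMa was at 75.2 CPM in the knockout and 101 CPM in the control, a ratio of -0.43 (-0.69 to -0.17). H2-DMb1 was at 31.0 CPM in the knockout and 20.2 CPM in the control there, a ratio of 0.62 (0.13 to 1.11). In eosinophils H2-Ab1 had 18 UMIs in 40 knockout cells and 14 in 60 control cells. Over all kept cells the 7 members summed to 438 CPM in the knockout and 409 CPM in the control, a log2 ratio of 0.10 (0.08 to 0.11), and 1.02% of the 6096 genes measured there were at least 1.5-fold higher.

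The other measured genes of the class II pathway mostly lay near equality in stem-gated cells. Of the other class II genes only H2-Ob, a chain of the H2-O inhibitor of peptide exchange, was measured, at 22.01 CPM in the knockout and 21.84 CPM in the control. Among 13 measured genes of the enhanceosome and of Ciita induction (of 19 listed), 0 were at least 1.5-fold higher and 1 was that far lower, with a median log2 ratio of 0.01. That gene was Socs3, a feedback inhibitor of cytokine receptors, at 24.8 CPM in the knockout and 40.0 CPM in the control. Nfya, a Y box binding subunit, was at 89.5 CPM in the knockout and 89.0 CPM in the control. Ifngr1, a chain of the interferon-γ receptor, was at 48.7 CPM in the knockout and 58.0 CPM in the control. Of 9 loading and turnover genes in the file, 3 were measured and 0 passed 1.5-fold, with the cathepsin genes Ctsb at 71.5 CPM in the knockout and 71.0 CPM in the control and Ctsl at 20.3 CPM in the knockout and 27.0 CPM in the control.

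Of 18 class I genes measured in stem-gated cells, 2 were at least 1.5-fold higher and 0 that far lower, with a median log2 ratio of 0.04, beside 0.757% and 0.742% of all measured genes. These were H2-Q4, at 45.3 CPM in the knockout and 25.3 CPM in the control, and H2-Q6, at 74.8 and 43.4 CPM. Both belong to a family of near-identical copies, so their counts are uncertain. The classical H2-K1 was at 905 CPM in the knockout and 949 CPM in the control, and its light chain gene B2m at 1144 CPM in the knockout and 1192 CPM in the control. The type I interferon list had 2 measured genes, neither past 1.5-fold, with Irf9 at 27.1 CPM in the knockout and 33.9 CPM in the control. Under the floor, Oas1a (30 UMIs in the knockout and 7 in the control), Rsad2 (118 and 71) and Ifit2 (78 and 53) were higher in the knockout. The intervals of the other interferon genes under the floor held equality. None of 8 costimulation genes reached the floor in stem-gated cells.

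In dendritic-gated cells, where 7.00% of all measured genes were at least 1.5-fold higher and 3.62% that far lower, the same lists held 0 of 13 enhanceosome and inducer genes past 1.5-fold (median -0.10), 0 of 6 loading genes (0.02), and 1 of 16 class I genes higher (Erap1, a peptide trimming enzyme, at 36.2 CPM in the knockout and 20.2 CPM in the control; median -0.05). Of the 16 class I genes, 6 had a ratio above 0. The classical H2-K1 and H2-D1 were lower in the knockout, at log2 ratios of -0.32 (-0.48 to -0.17) and -0.46 (-0.59 to -0.34). The light chain gene B2m was at -0.33 (-0.45 to -0.21). H2-DMb2 had 31 UMIs in the knockout and 53 in the control, a log2 ratio of -0.60 whose interval (-1.29 to 0.06) held equality. Of 5 measured interferon genes 4 had a ratio below 0 and 1 was at least 1.5-fold lower. Under the floor, Usp18 (7 UMIs in the knockout and 30 in the control), Ifit2 (6 and 21), Ifit3 (0 and 6) and Ifi44 (0 and 6) were lower in the knockout. The intervals of the other interferon genes under the floor held equality, or both libraries had 0 UMIs. Of 3 costimulation genes 0 passed 1.5-fold, with Cd86, a ligand of T cell CD28, at 51.9 CPM in the knockout and 43.0 CPM in the control.

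Among 8284 genes, those whose log2(CPM + 1) most resembled that of the summed members over the 18 class and library points were Snx21 (r = 0.977), Sdc3 (0.974), Ckb (0.973), Tlr3 (0.970), Cldnd1 (0.968), Cd7 (0.967), Samhd1 (0.964) and Cd83 (0.962). Ckb, for instance, was at 308 CPM in knockout and 226 CPM in control dendritic-gated cells and at 1.62 and 0.738 CPM in stem-gated cells. The correlations of single members given above are with H2-Aa, so they are not set against those of these 8 genes.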

How the data were processed

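Single-cell RNA was measured in 1 Trsp knockout and 1 control library of Lineage- cKit+ bone marrow cells, and the genotype labels gave the groups. The deposited values are raw UMI counts by gene and barcode, which the authors made from 10x 3′ v3.1 libraries using Cell Ranger (version 6.1.2) on mm10, per the labels' protocols and, for software and build, the submitters' processing notes. For cell calling, strand and annotation release the sources used here give nothing. No barcode had under 500 UMIs.

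Filters of 500 genes or more and a mitochondrial share below 10% left 6706 knockout and 8192 control barcodes. Scrublet (scanpy 1.11.5, expected rate 10%) called 0.775% of knockout and 1.78% of control barcodes doublets at its own thresholds. The control threshold of 0.433 was then used for both and removed 66 knockout and 146 control cells. Classes came from marker gates. Clusters (Leiden, leidenalg 0.10.2, 2000 variable genes, 30 components, 15 neighbours, 22 clusters), made without class II and selenoprotein genes, served as an alternative.

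UMIs were summed per class and divided by the class total to give CPM. Intervals are exact Poisson (levels), Clopper-Pearson (shares) and conditional binomial (ratios), at 95% (numpy 2.4.6, scipy 1.17.1). The ratio and its interval were run on simulated counts drawn gene by gene from the Poisson model that the interval assumes. That run checks the code only. It says nothing of how well the interval covers counts that gather in few cells, as the stem counts do. A UMI counts the 3′ end of a transcript, so no length scaling was used. No test was made with 1 library per genotype. Text names all 7 members in the 9 classes with at least 30 cells per library, the measured genes of the lists by count with examples, and the 8 genes most like the summed members. The members, markers and lists were chosen with earlier results of these data known. Alternatives on filters, gates, scaling and sums were tried. The value of 1 listed gene is not reported here.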

Additional observations from a re-analysis of the deposited data

Results flagged for a closer look

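In cells that met no gate, 2 chain genes went the other way than in stem-gated cells. H2-Aa was at 11.5 CPM in the knockout and 13.2 CPM in the control there, a log2 ratio of -0.20 (-0.36 to -0.03), and H2-Eb1 at 5.13 and 6.12 CPM, a ratio of -0.26 (-0.51 to -0.01). The difference from the stem-gated cells was not tested, since each genotype has 1 library.

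Classes too small to compare also held class II RNA. The 3 plasmacytoid dendritic cells of the knockout had 52 UMIs of H2-Aa, 37 of H2-Ab1, 29 of H2-Eb1 and 115 of Cd74, against 0, 0, 0 and 3 in the 3 control cells. The 26 knockout plasma cells had 26 UMIs of H2-DMa (38.2 CPM), against 15 (13.2 CPM) in the 47 control plasma cells.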

How the results depend on the processing

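No paired analysis was possible because each genotype has 1 library, and for the same reason none could be left out. The summed stem log2 ratio of 0.32 lay above 0 in 15 of 16 alternatives. It was 0.24 with predicted doublets kept, 0.49 with 2 UMIs of Hlf and Mecom required, 0.094 with Hlf alone, 0.24 without Cd74, 0.82 for the 4-gene sum and 0.61 in cluster 7. It reversed to -0.15 when cells meeting another gate were kept, as did H2-Aa (-0.21), H2-Ab1 (-0.046), H2-Eb1 (-0.22) and Cd74 (-0.43), and 6 control cells that met the stem and dendritic gates held 1146 UMIs there. The count of members at least 1.5-fold higher, 2, became 1 with doublets kept or Hlf alone, 4 with 2 UMIs each or in cluster 7, and 0 with multi-gate cells kept. The share of stem-gated cells with a class II UMI was 38.2% in the knockout and 33.7% in the control at 2 UMIs, and 78.0% and 69.4% in cluster 7. In cells with 0 UMIs of every dendritic, mature B and macrophage marker it was 67.3% in the knockout and 69.1% in the control. That turns the order of 70.0% and 65.1% round. With 0 UMIs of only 7 dendritic and 5 mature B markers it was 69.3% in the knockout and 65.6% in the control, which keeps the order. The dendritic sum (0.14) was 0.21 under a filter of 1000 genes and 5% mitochondrial UMIs, 0.19 with doublets kept, 0.19 in the dendritic cluster and 0.11 with 1 more marker. The sum over all kept cells (0.10) was 0.32 under that filter, 0.013 with median-of-ratios scaling, 0.068 without mitochondrial, ribosomal and histone genes in the total, 0.081 as a mean over cells and 0.18 for the 4-gene sum. Why these moved was not tested. The 4-gene sum, cluster 7 and 2 other stem cell sets were chosen after the data were seen. At 24 knockout and 17 control UMIs, depth leaves Ciita in stem-gated cells undecided.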

Other observations

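In plasma cells, gated on Jchain and other secretory markers, Cd74 was at 2562 CPM in 26 knockout cells and 2623 CPM in 47 control cells, while H2-Aa had 3 UMIs in each library and Ciita 0. H2-Eb1 was at 41.1 CPM (28 UMIs) in the knockout and 27.3 CPM (31 UMIs) in the control, and H2-Ab1 at 58.7 and 42.3 CPM.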
